A study of Mus musculus with 48 samples.

Results

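TRBV20 is a variable (V) segment of the mouse T cell receptor β chain (TCRβ), listed as Tcrb-V15 among its older names. Its members were all clones assigned to TRBV20 in 48 TCRβ libraries: 24634 of 959731 deposited clone entries, or 17753 of 744876 distinct clones when each was counted once over all libraries. The segment was selected on its measured values, namely the shares of reads and of distinct clones it held in CD4+ and CD8+ T cells of tumor and draining lymph node (dLN), and its large CD8+ tumor clones, so those values are described here without a test. The libraries came from 4 female C57BL/6 mice (C57BL/6J in the study's methods), 8 weeks of age and numbered 5 to 8, that carried Lewis lung carcinoma (LLC) tumors under the skin of the left and the right back. On day 13, CD8+ and CD4+ T cells were sorted from 2 fragments of each tumor, and CD44hi cells of both subsets from each dLN. The tumor cells were not gated on CD44, so tumor and dLN differ in the sort as well as in the organ, and cells stained by an antibody given into the blood were left out.

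A TCRβ chain is made when a V, a diversity (D) and a joining (J) segment are cut and joined in a developing T cell, and the junction, called CDR3, is trimmed and extended at random before it is sealed. The V segment encodes CDR1 and CDR2, loops that mainly contact the MHC molecule, whereas CDR3 lies over the bound peptide. All daughters of a T cell keep its rearrangement, so the nucleotide sequence of the CDR3 with its V and J segment serves as the label of a clone, and a clone that divides raises its share of reads.

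In the GRCm38 annotation, Trbv20 (ENSMUSG00000076476.1, a TCR V gene) lies on the plus strand of chromosome 6 from 41188273 to 41188977, with exon 1 at 41188273 to 41188303 and exon 2 at 41188674 to 41188977. The last 60 bases of exon 2 (chr6:41188918-41188977) are shown because they hold the V part of every CDR3 below. The capitals mark the 14 germline bases that lie in the CDR3, from the codon of the conserved cysteine onward.
Trbv20, end of exon 2: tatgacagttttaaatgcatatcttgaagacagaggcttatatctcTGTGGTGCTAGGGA
The germline letters thus give the first 4 residues CGAR and the first 2 bases of the next codon. Among the 17753 distinct clones, 5655 (31.9%) kept V sequence up to base 14, and 5169 of these matched the germline letters at all 14 positions.

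There were 5 TRBV20 clones that held at least 1% of CD8+ reads, averaged over both tumors of a mouse. Of these, 4 are shown and described, since the 5 held most TRBV20 reads in the CD8+ tumors of mice 5, 7 and 8. Capitals mark the bases between the V and the J part, where D bases and added nucleotides lie.
Mouse 5, TRBJ2-7, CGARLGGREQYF: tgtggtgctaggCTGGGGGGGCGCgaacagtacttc
Mouse 6, TRBJ1-2, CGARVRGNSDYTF: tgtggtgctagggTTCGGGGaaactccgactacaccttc
Mouse 7, TRBJ1-1, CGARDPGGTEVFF: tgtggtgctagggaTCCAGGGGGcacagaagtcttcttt
Mouse 8, TRBJ1-4, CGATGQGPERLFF: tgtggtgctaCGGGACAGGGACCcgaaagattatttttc
Their CDR3s were 12 or 13 residues long, with 7 to 13 bases between V and J.

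Each library was drawn to 6 reads per sorted cell, which left 131070 to 2035380 reads and 151 to 909 TRBV20 clones per library. The fragments of a tumor were summed, left and right of a mouse were averaged, and errors are SDs over the 4 mice (n = 4) except where another n stands. In mouse 5, TRBV20 held 6.50% of CD8+ reads in the left tumor against 8.50% in the right one. Left and right stood at 3.27% and 3.12% in mouse 6, 9.16% and 8.62% in mouse 7, and 4.08% and 4.93% in mouse 8. Both tumors of mice 5 and 7 thus lay above those of mice 6 and 8. In the CD8+ CD44hi cells of the dLNs, the share ranged from 1.47% to 1.71% with a median of 1.56% over 8 dLNs, below every CD8+ tumor. CD4+ tumors ranged from 3.41% to 5.71% (median 3.88%), and CD4+ dLNs from 3.04% to 3.85% (median 3.42%).

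The group means of the share of reads were 6.02% ± 2.63 in CD8+ tumors, 4.22% ± 1.01 in CD4+ tumors, 3.40% ± 0.295 in CD4+ dLNs and 1.58% ± 0.0578 in CD8+ dLNs (SD, n = 4 mice each). In this order, the mouse values of CD8+ and CD4+ tumors overlapped, as did those of CD4+ tumors and CD4+ dLNs, and those of both dLN groups did not. Within mice, the CD8+ tumor share was 2.13 to 5.52 times the CD8+ dLN share, and the CD4+ tumor share 1.02 to 1.49 times the CD4+ dLN share, higher in 4 of 4 mice in both subsets. The mouse values of CD8+ tumor and dLN did not overlap for TRBV20 or for 10 other V segments, 47.8% of the 23 segments present in every repertoire, and since the segment was chosen for this difference nothing is read from its place among them. The same background was 30.4% for CD4+ tumor against dLN, 30.4% for CD8+ against CD4+ tumors and 87% for CD8+ against CD4+ dLNs. Reads come from mRNA, so more cells of a clone and more TCRβ mRNA per cell cannot be told apart, and tumor and dLN cannot be told apart from their different sorts.

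**Figure D1:**
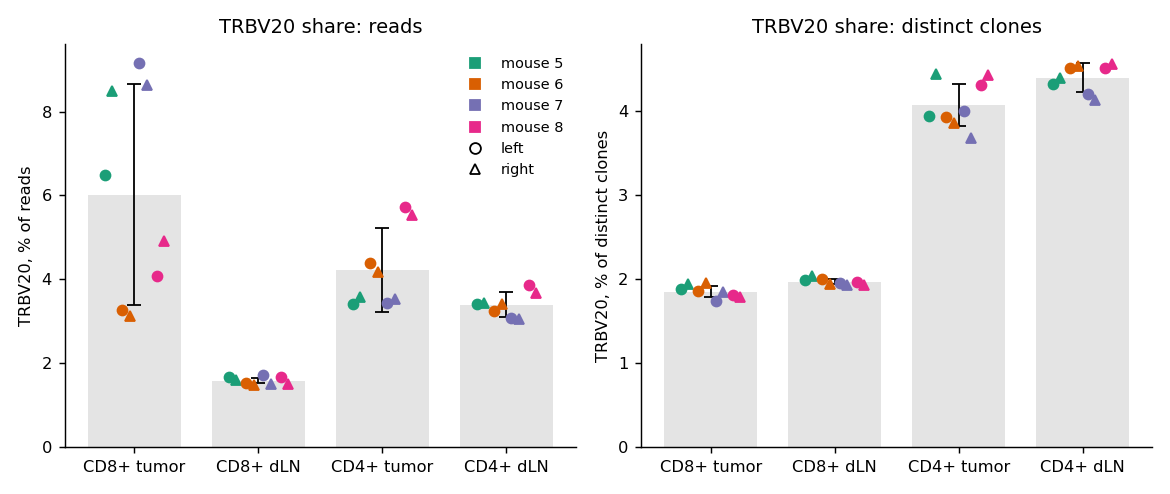
TRBV20 share of all reads (left) and of all distinct clones (right) in percent, by group; circles are left and triangles right samples, colors are mice, and bars with error bars are mean ± SD over 4 mice. By reads, CD8+ tumors ranged from 3.12% to 9.16% and every CD8+ dLN was at or below 1.71%; by distinct clones, both CD8+ groups lay near 2% and both CD4+ groups near 4%.

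Counted by distinct clones, the picture was different. TRBV20 made up 1.85% ± 0.0648 of the distinct clones in CD8+ tumors and 1.97% ± 0.0321 in CD8+ dLNs, and 4.07% ± 0.252 in CD4+ tumors and 4.40% ± 0.174 in CD4+ dLNs (SD, n = 4 mice). Each CD8+ tumor held 374 to 1462 TRBV20 clones, and each CD8+ dLN held 603 to 909. The mouse values of CD8+ tumors (1.79% to 1.91%) lay just below those of CD8+ dLNs (1.94% to 2.01%), the reverse of the order by reads. The share in CD4+ cells was 2.20 ± 0.163 times that in CD8+ cells in tumors and 2.23 ± 0.0903 times in dLNs, in 4 of 4 mice each. Within mice, the tumor share was 0.922 to 0.967 times the dLN share in CD8+ cells and 0.860 to 0.963 times in CD4+ cells, lower in 4 of 4 mice in both subsets, although the mouse values of CD4+ tumors and dLNs overlapped. The values did not overlap for 65.2% of the 23 segments in CD8+ tumor against dLN, 56.5% in CD4+ tumor against dLN, 78.3% in CD8+ against CD4+ tumors and 95.7% in CD8+ against CD4+ dLNs.

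The share of reads divided by the share of distinct clones was 3.27 ± 1.47 in CD8+ tumors, 1.03 ± 0.204 in CD4+ tumors, 0.803 ± 0.0294 in CD8+ dLNs and 0.771 ± 0.0464 in CD4+ dLNs. In CD8+ tumors TRBV20 had the second highest ratio of the 23 segments, behind TRBV26, and by this ratio it ranked 18 of 23 in both dLN groups. The ratio is made of the shares by which the segment was chosen, so nothing is read from these ranks. The most frequent TRBV20 clone held 42.0% to 90.6% of the TRBV20 reads in single CD8+ tumors, against 2.40% to 13.6% in CD8+ dLNs, 7.72% to 38.1% in CD4+ tumors and 1.59% to 7.51% in CD4+ dLNs.

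**Figure D2:**
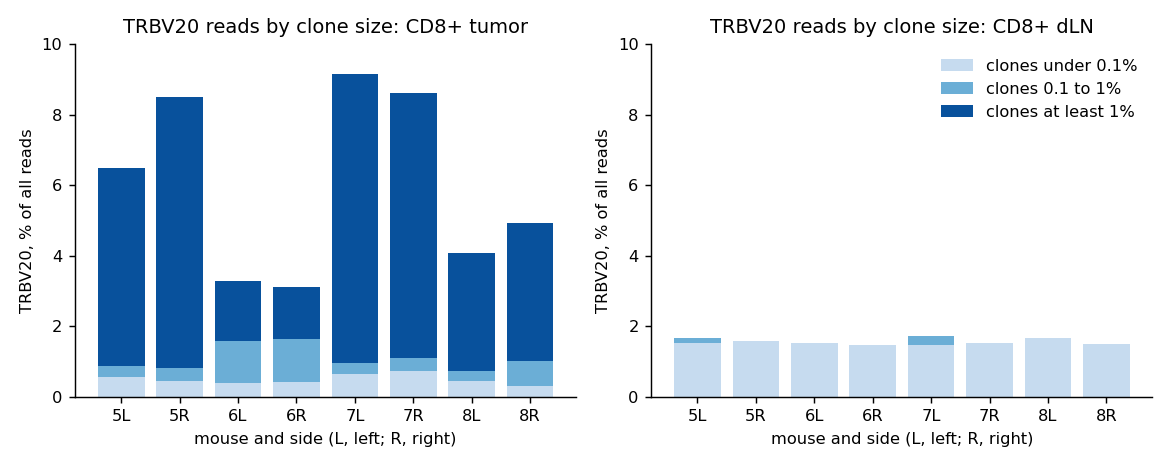
TRBV20 share of all CD8+ reads in percent for each tumor (left) and each dLN (right), split by the size of the clone in that repertoire. Clones of at least 1% fill most of the bar in the tumors of mice 5, 7 and 8 and are absent from the dLN bars, where the left dLNs of mice 5 and 7 each hold 1 clone over 0.1% (0.141% and 0.232%) and the other 6 hold none.

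TRBV20 clones under 0.1% of a repertoire added up to 0.318% to 0.723% of all CD8+ tumor reads, and to 1.47% to 1.66% of CD8+ dLN reads. The denominators differ, since large clones of all V segments fill the tumors. Among reads of clones under 0.1% of any segment, TRBV20 held 1.89% ± 0.298 in CD8+ tumors and 1.55% ± 0.0642 in CD8+ dLNs (SD, n = 4 mice). Mouse by mouse, these values were 2.30%, 1.92%, 1.63% and 1.72% in the tumors of mice 5 to 8, and 1.58%, 1.503%, 1.499% and 1.63% in the dLNs. The tumor value was higher than the dLN value of the same mouse in 4 of 4 mice, and the lowest tumor and the highest dLN overlapped. With only clones of 1% or more left out, the value was 2.52% ± 1.13 in CD8+ tumors and 1.59% ± 0.0585 in CD8+ dLNs. In mouse 7 the tumor value of 1.58% was then below the dLN value of 1.61%. In mice 5, 6 and 8 the tumor value was higher, with the highest, 4.15%, in mouse 6. These limits were set after the data were seen.

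The TRBJ2-7 clone of mouse 5 held 5.62% of left-tumor CD8+ reads (95% Wilson interval on estimated cells 5.52% to 5.72%) against 7.70% for the right tumor (7.57% to 7.83%), and was the 4th most frequent CD8+ clone of its mouse. The TRBJ1-2 clone of mouse 6 held 1.69% and 1.496%, with rank 14. The TRBJ1-1 clone of mouse 7 was the most frequent CD8+ clone of that mouse, at 8.20% (8.12% to 8.28%) and 7.52% (7.45% to 7.60%). The TRBJ1-4 clone of mouse 8 held 1.30% and 2.07%, with rank 13. Left and right tumors differed by 1.09 to 1.59 times over these 4 clones. Each clone was in all 4 tumor fragments of its mouse, from 4.99% to 8.18% for the mouse 5 clone and from 1.42% to 1.74% for the mouse 6 clone. The smallest clone past the limit of 1% was the mouse 6 clone at a mean of 1.59%, and the largest below it held 0.468%, also in mouse 6. There were 68 clones of at least 1% over all segments, of which 5 (7.35%) carried TRBV20, and TRBV26, TRBV4, TRBV5 and TRBV13-1 had more.

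These 4 clones had reads in both CD8+ dLNs of their mouse, at low levels. In the right dLNs of mice 5 and 8 there were only 2 reads each, below a floor of 3 reads, with intervals from 0%. The part of stray reads in the dLN values was not tested. The mouse 5 clone held 0.0142% in the left dLN (58 reads, interval 0.00796% to 0.0270%) and 0.000648% in the right (2 reads, interval up to 0.00747%). The mouse 6 clone held 0.0185% and 0.0396%, left before right, and the mouse 7 clone 0.0137% and 0.0161%. The mouse 8 clone held 0.00588% and 0.000402%, the last from 2 reads. The mean tumor share was therefore 54.9 times the mean dLN share for the mouse 6 clone, 527 times for the mouse 7 clone, 537 times for the mouse 8 clone and 899 times for the mouse 5 clone. These values are of the 4 clones described, and the range over all 5 is wider. Over the 68 large clones of all segments, the ratio ranged from 9.52 to 5539 with a median of 142 where a dLN read was found, and 6 clones had none in either dLN. Clones picked for a high tumor share are lower elsewhere in part through that choice.

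**Figure D3:**
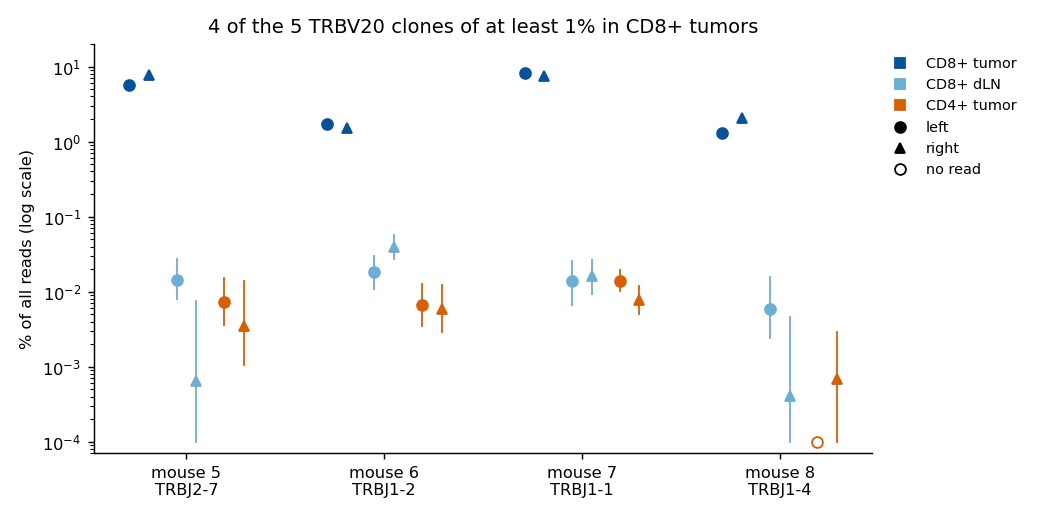
Share of all reads in percent (log axis) of the 4 TRBV20 clones in CD8+ tumors, CD8+ dLNs and CD4+ tumors of their own mouse; circles are left and triangles right, lines are 95% Wilson intervals on estimated cells cut at the lower axis end, and an open symbol marks 0 reads. Tumor values lie between 1.30% and 8.20% and dLN values between 0.000402% and 0.0396%.

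Sorted CD4+ cells of the same mouse held few reads of these clones. The highest CD4+ tumor share was 0.0140% for the mouse 7 clone in the left tumor, and no read of these 4 was found in a CD4+ dLN. The smallest share that 3 reads would give in a CD4+ dLN ranged from 0.000883% to 0.00177%. The sort purity was stated as over 95%, and the part of stray cells or reads in the CD4+ values was not tested. In other mice, reads were found for the mouse 5 clone (at most 0.000846%) and the mouse 7 clone (at most 0.00396%), and none for the mouse 6 and mouse 8 clones.

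The CDR3 of the large mouse 6 clone belongs to a set that recurred in every mouse. The set, chosen after the values were seen and described without a test, holds all TRBV20 and TRBJ1-2 clones with the residues of the mouse 6 clone at every position but the fifth. It contained 18 nucleotide sequences and 5 amino acid sequences, and 10 of the nucleotide sequences encoded the residues of the mouse 6 clone. Of the sequences that reached 0.05% of CD8+ tumor reads in a mouse, 4 more are shown, with capitals between V and J as before.
Mice 6 and 7, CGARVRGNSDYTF: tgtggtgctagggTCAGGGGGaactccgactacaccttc
Mouse 6, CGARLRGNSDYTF: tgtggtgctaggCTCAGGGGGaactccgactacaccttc
Mouse 5, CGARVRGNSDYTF: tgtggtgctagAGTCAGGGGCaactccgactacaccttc
Mouse 8, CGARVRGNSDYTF: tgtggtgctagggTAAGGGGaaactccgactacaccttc
The first of these held mean shares of 0.0163% in the CD8+ tumors of mouse 5, 0.468% in mouse 6 and 0.347% in mouse 7. In mouse 8 it was at 5.45e-05%, more than 100 times below its value in mouse 6, and the part of stray reads from another library was not tested. The other 3 were each found in 1 mouse. The set holds further clones that are not reported singly here, so the shares of the sequences shown do not add up to those of the set. The start of the germline Trbj1-2 segment (chr6:41534001-41534020, plus strand) reads caaactccgactacaccttc, so the residues after the glycine come from J.

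Left and right CD8+ tumors of mouse 5 held 0.332% and 0.370% of their reads in the set, with 2.42% and 2.32% in mouse 6, 0.314% and 0.379% in mouse 7, and 2.13% and 1.93% in mouse 8. These were 3.43% to 74.2% of the TRBV20 reads of a tumor, from 1 to 6 clones each. Clones with all residues of the mouse 6 clone held means of 0.229%, 2.06%, 0.347% and 0.0887% in mice 5 to 8. The rest of the set differed at residue 5. In CD8+ dLNs, the set held 0.0458% to 0.114% of reads in 8 of 8 dLNs, 4.69% ± 1.19 of the TRBV20 reads. The tumor share was 4.31 to 30.7 times the dLN share over the 4 mice. In CD4+ cells, 6 of 8 tumors and 4 of 8 dLNs held reads of the set, at most 0.00730% of reads. The set was seen in every CD8+ sample and lay higher in each CD8+ sample than in any CD4+ sample. It was built on a clone picked for its high share in CD8+ tumors, so this order follows in part from that choice.

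The last 8 residues of the set (RGNSDYTF) were also found with other V segments. In CD8+ tumors, other V segments together held 20 to 71 clones with this ending per tumor, but 0.0102% to 0.0314% of reads. The segment with most reads among them, TRBV13-2, held a mean of 0.00217% from 27 clone entries over 8 tumors, where TRBV20 held 1.27% from 28. The ending was taken from the large TRBV20 clone of mouse 6. A higher TRBV20 share in CD8+ tumors therefore follows in part from that choice, and no preference of the segment is read from it. In CD8+ dLNs, the other segments held 0.0574% to 0.115%. For background, 435 of 5188 TRBV20 amino acid clonotypes of CD8+ tumors (8.38%) had more than 1 nucleotide sequence, and 19 (0.366%) were seen in all 4 mice, against 11.2% and 0.612% of the clonotypes of other V segments. Traces of a large clone in another mouse's library count toward that number.

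**Figure D4:**
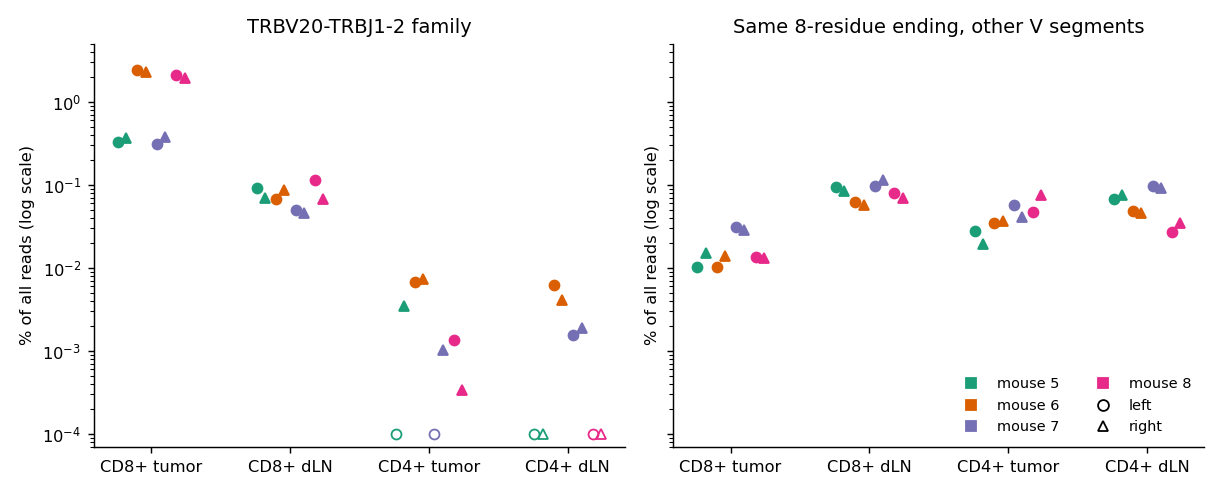
Share of all reads in percent (log axis) of the TRBV20 and TRBJ1-2 set (left) and of clones with the same last 8 residues but another V segment (right), by group; circles are left and triangles right samples, colors are mice, open symbols mark 0 reads. The set lies between 0.314% and 2.42% in CD8+ tumors and at or below 0.00730% in CD4+ cells, and the other segments lie at or below 0.115% in every group.

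CDR3 length was not used to choose the segment and was compared over distinct clones. TRBV20 CDR3s were short, with a mean of 13.05 ± 0.0430 residues in CD8+ tumors, 13.04 ± 0.0386 in CD8+ dLNs, 13.10 ± 0.0586 in CD4+ tumors and 13.10 ± 0.0403 in CD4+ dLNs (SD, n = 4 mice). They ranked 22 of 23 segments in each group, and clones of the other segments were 0.718 to 1.03 residues longer on average. The 4 TRBV20 groups lay within 0.1 residue of each other. The difference was 0.00697 residues between CD8+ tumors and dLNs (exact permutation test over 70 splits, two-sided, p = 0.800, adjusted p = 0.960 over 12 tests), and the CD4+ and subset comparisons had adjusted p of 0.429 to 0.971. At an unadjusted exact p under 0.05, CDR3 length differed for 77.3% of 22 segments between CD8+ tumors and dLNs, 36.4% between CD4+ tumors and dLNs, and 72.7% between subsets in tumors and in dLNs alike. TRBV20 ranked 20, 21, 20 and 18 of 22 in the size of these differences. The smallest p the test allows is 0.0286, and p-values here and below measure the spread between 4 mice per group. That p-values missed the threshold does not show that the lengths were equal.

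Over the distinct TRBV20 clones, TRBJ2-7 was the most used J segment in each group, with 22.3% ± 1.02 in CD8+ tumors, 19.5% ± 1.31 in CD8+ dLNs, 20.04% ± 0.881 in CD4+ tumors and 17.3% ± 1.52 in CD4+ dLNs. By the mean over the 4 groups, TRBJ2-1 and TRBJ1-1 followed at 12.4% and 11.1%, and TRBJ1-6 was lowest at 2.68%. This order did not hold in every group. In CD4+ dLNs, TRBJ2-5 at 12.3% was above TRBJ2-1 at 10.5%, and TRBJ1-5 was lowest at 3.15%. In CD4+ tumors, TRBJ2-5 at 11.0% was above TRBJ1-1. TRBJ1-1 stood at 12.2% ± 1.77 and 13.2% ± 1.41 in CD8+ tumors and dLNs, against 9.83% ± 0.287 and 8.90% ± 1.38 in CD4+. By reads, the CD8+ tumor values were set by the large clones: TRBJ1-1 held 23.8% ± 43.7 of TRBV20 reads and TRBJ2-1 0.980% ± 0.416, where TRBJ2-1 held 13.9% ± 1.36 of distinct clones. In the CD8+ dLNs, both counts were close, with 13.2% ± 1.18 of reads for TRBJ1-1 and 14.03% ± 1.45 for TRBJ2-1.

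**Figure D5:**
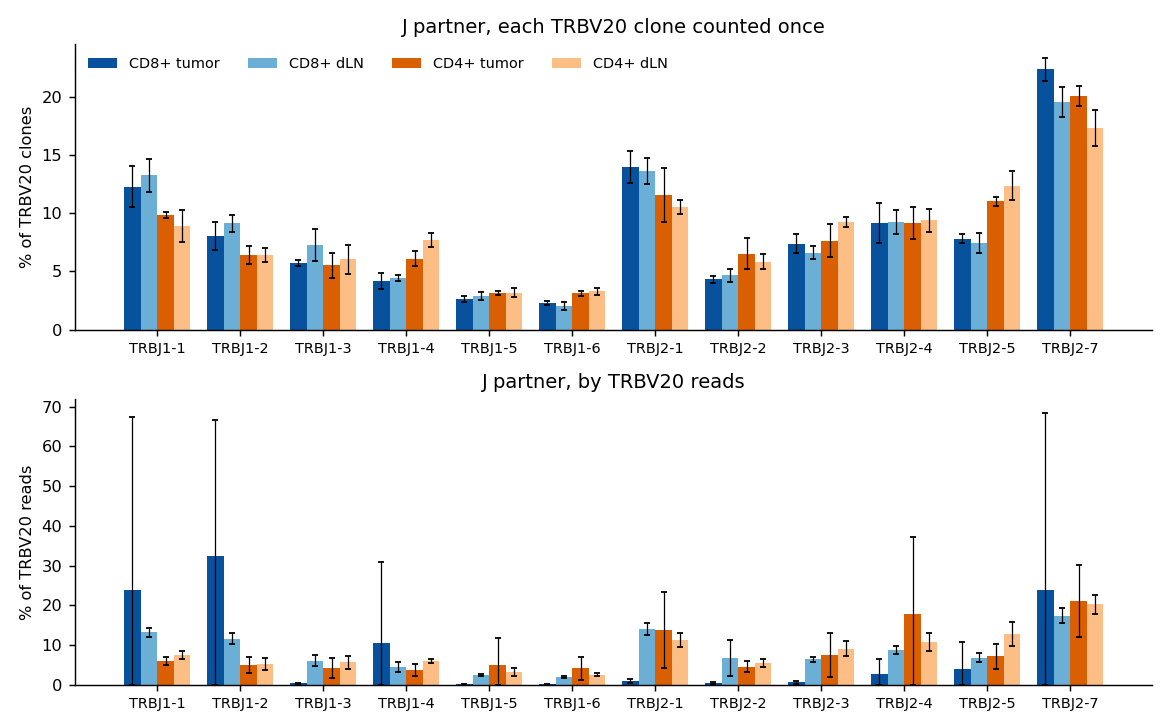
J partners of TRBV20 in percent, counting each clone once (top) and by reads (bottom), in 4 groups; bars are means and error bars SD over 4 mice, with the lower bar stopped at 0. TRBJ2-7 is highest in every group over clones, and the wide bars for TRBJ1-1, TRBJ1-2 and TRBJ2-7 by reads in CD8+ tumors reflect 1 or 2 large clones in a mouse.

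The TRBJ1 cluster as a whole took 35.1% ± 2.30 of distinct TRBV20 clones in CD8+ tumors, 38.9% ± 1.63 in CD8+ dLNs, 34.1% ± 1.40 in CD4+ tumors and 35.4% ± 0.746 in CD4+ dLNs. It was lower in CD8+ tumors than in CD8+ dLNs in 4 of 4 mice, by 3.86 percentage points (exact permutation test, two-sided, p = 0.0286, adjusted p = 0.171). It was higher in CD8+ than in CD4+ dLNs in 4 of 4 mice, by 3.50 points (exact permutation test, p = 0.0286, adjusted p = 0.171). Neither passed after adjustment over the 12 tests, and with the mouse as a block the exact p was 0.125 for both, the smallest it can be. The other comparisons differed by -1.33 points in CD4+ tumors against dLNs and 0.964 points in CD8+ against CD4+ tumors (exact permutation tests, adjusted p = 0.429 and 0.724). An unadjusted p under 0.05 was found for 22.7%, 9.09%, 50% and 40.9% of 22 segments in CD8+ and CD4+ tumor against dLN and in CD8+ against CD4+ tumors and dLNs. The tumor against dLN difference itself differed between CD8+ and CD4+ by -2.53 points, which was not past the threshold (exact permutation test, p = 0.114, adjusted p = 0.343 over 3 features).

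Nucleotides not assigned to V, D or J numbered 3.24 ± 0.109 per TRBV20 clone in CD8+ tumors, 3.26 ± 0.164 in CD8+ dLNs, 3.11 ± 0.165 in CD4+ tumors and 3.19 ± 0.0980 in CD4+ dLNs. The 4 comparisons had exact permutation p from 0.229 to 0.914 and adjusted p from 0.457 to 0.971, so none was past the threshold, and the unadjusted p was under 0.05 for 31.8%, 9.09%, 22.7% and 18.2% of 22 segments. TRBV20 had the fewest such nucleotides of the 23 segments in CD8+ and CD4+ tumors, and ranked 18 in CD8+ and 19 in CD4+ dLNs.

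Residues at the V end of the CDR3 are given as a description, chosen after the values were seen. The germline start CGAR was kept in 69.2% ± 1.86 of distinct TRBV20 clones in CD8+ tumors, 71.2% ± 1.71 in CD8+ dLNs, 69.8% ± 2.86 in CD4+ tumors and 66.3% ± 2.35 in CD4+ dLNs. Residue 5, whose codon opens with the germline bases ga, was aspartate in 26.2% to 30.0% of clones in the 4 groups. Glutamate, which shares those bases, stood at residue 5 in 11.8% ± 1.29 and 13.0% ± 0.514 of clones in CD8+ tumors and dLNs, and in 7.25% ± 0.794 and 7.73% ± 0.388 in CD4+. The residues DWG in a row, which the mouse 7 CD4+ dLN clone below carries, were the other way round: 5.92% ± 1.04 and 5.19% ± 0.699 of clones in CD8+ tumors and dLNs, against 12.3% ± 2.31 and 11.2% ± 0.583 in CD4+. CDR3s of 11 residues made up 9.74% ± 0.894 and 10.2% ± 0.899 in CD8+ and 5.97% ± 1.62 and 6.72% ± 0.685 in CD4+.

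Among CD4+ cells, 1 TRBV20 clone reached 1% in a tumor. This TRBJ2-4 clone of mouse 7, shown because it was the largest CD4+ member, held 1.29% (left) and 1.34% (right) of tumor reads and 0.0287% and 0.0585% in the dLNs.
Mouse 7, TRBJ2-4, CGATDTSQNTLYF: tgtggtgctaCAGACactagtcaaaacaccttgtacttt
The most frequent TRBV20 clones of the other CD4+ tumors were ranked by the mean of left and right. They were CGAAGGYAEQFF (TRBJ2-1, 0.293% and 0.277%) in mouse 5 and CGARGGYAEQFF (TRBJ2-1, 0.713% and 0.717%) in mouse 6. In mouse 8 it was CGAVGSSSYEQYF (TRBJ2-7, 0.496% and 0.428%). In the right CD4+ tumor of mouse 5 alone, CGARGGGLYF was higher, at 0.312%. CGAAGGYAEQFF of mouse 5 was not found in either CD4+ dLN, where 3 reads would be 0.00114% and 0.00177%. In the CD4+ dLNs, the most frequent by the mean of left and right was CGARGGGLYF (TRBJ2-7) in mouse 5, at 0.257% and 0.145%. In the other mice it was a TRBJ1-2 clone (mouse 6), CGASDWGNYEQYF (TRBJ2-7, mouse 7) and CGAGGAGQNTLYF (TRBJ2-4, mouse 8). All 4 were also in both CD4+ tumors of their mouse, at mean shares of 0.0903% to 0.306% that were 1.203 to 2.22 times those in the dLNs.

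The most frequent TRBV20 clone of the CD8+ dLNs was also ranked by the mean of left and right. In mouse 5 it was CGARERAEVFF (TRBJ1-1), at 0.141% (left) and 0.0249% (right). In the right dLN alone, another clone was higher, at 0.0382%. In mouse 7 the most frequent was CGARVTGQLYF (TRBJ2-2), at 0.232% and 0.0623%. In the CD8+ tumors, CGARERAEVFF and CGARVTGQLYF held means of 0.0885% and 0.0604%. In mouse 6, the most frequent was the member of the recurring TRBJ1-2 set shown first above, at a mean of 0.0482%.

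The overlap of left and right TRBV20 repertoires was the geometric mean of the read shares of their shared clones. It was 95.3% ± 1.77 within mice and 6.75% ± 10.4 between mice in CD8+ tumors, 89.0% ± 3.45 and 2.61% ± 1.40 in CD4+ tumors, 43.4% ± 2.48 and 2.80% ± 0.942 in CD4+ dLNs, and 15.2% ± 1.86 and 3.05% ± 1.92 in CD8+ dLNs (SD, n = 4 mice and 12 pairs between mice). The value between mice in CD8+ tumors moved with the setting: it was 1.85% once a clone was removed from a mouse whose share lay 100 times or more below that of another, 3.90% with each library drawn to the reads of the smallest, 3.71% with a minimum of 6 reads and 24.3% with clones by CDR3 amino acids, and 3.52% without mouse 5 and 12.2% without mouse 8, while the value within mice stayed between 94.6% and 96.0%. With amino acid clones, the values between mice were also higher in the other groups, at 8.02% to 8.93%, and without mouse 8 that of CD8+ dLNs was 4.77%. Each group had an exact permutation p of 0.0417 over 24 pairings, one-sided, the smallest it can give, with the same adjusted p over 4 groups. A p under 0.05 was found for 95.7% of segments in CD8+ tumors, 82.6% in CD8+ dLNs and 100% in both CD4+ groups, and the pattern was known for the whole repertoire, so it lends TRBV20 no standing of its own. By clones rather than reads, 13.2% to 16.4% of the left tumor's CD8+ TRBV20 clones were found on the right, against 41.6% to 52.8% in CD4+ tumors. In CD8+ tumors, a mouse had 62 to 219 shared clones, among them the 1 or 2 clones of at least 1%, and the most frequent clone alone held 46.1% to 88.5% of the TRBV20 reads of a mouse.

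Over the 32 samples, the segments whose share of reads followed that of TRBV20 most closely were TRBV2 (Spearman's rho 0.72), TRBV5 (0.60) and TRBV26 (0.47). By share of distinct clones they were TRBV31 (0.92), TRBV26 (0.89) and TRBV2 (0.86), each of which also had a higher share of distinct clones in CD4+ than in CD8+ cells. The 32 samples come from 4 mice and 4 groups and shares within a sample add to a fixed total, so these values are given as a description.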

How the data were processed

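T cells were sorted, TCRβ cDNA was amplified and sequenced, and, per the paper's methods, the authors trimmed reads with Cutadapt (3.2 in the submitters' processing notes), aligned them to IMGT mouse segments and assembled productive clones with MiXCR. The authors deposited a read count for each clone, its fraction of the library's total count, and the ends of the V, D and J parts, here counted as positions from the CDR3 start. The genome build behind the segments is not given in the sources used here. Coordinates and germline letters are from the GENCODE annotation of GRCm38.

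The deposited libraries held 326582 to 4840722 reads, and from each a single random subset of 6 reads for every sorted cell was kept (seed 20, no read taken more than once), the depth the study used, with its table of cell numbers. There, 1 read was 4.91e-05% to 0.000763%. A clone was a V, J and CDR3 nucleotide sequence, and 95% Wilson intervals were computed on estimated cells. Molecular identifiers were not used, so intervals and floors of 3 reads cover counting error only. The mouse was the replicate (n = 4). Exact permutation tests used 70 splits or 24 pairings, with Benjamini-Hochberg adjustment, and were tested on simulated data. The pairing of groups comes from the mouse numbers in the labels, which mark the same animal. As a check, standardized deviations of the 3 CDR3 features had r from -0.163 to 0.383 over 12 points for each pair of groups. V segments entered the feature tests with at least 20 distinct clones in all 32 repertoires.

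The segment, its clones and the lists were chosen with earlier results of these data known. Clones were named if at least 1% of CD8+ tumor reads on average, or the most frequent TRBV20 clone of a mouse and group; J segments as the 3 highest and the lowest; V segments as the 3 most alike. Alternatives covered depth, seed, read minimums, clone definition, traces between mice, pooling, read weights, the replicate block, thresholds and leaving out each mouse. Software was scipy 1.17.1, numpy 2.4.6 and pandas 2.3.3 under Python 3.11.15, and plots were made with matplotlib 3.10.9. Sequences and values of some clones are not reported here.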

Additional observations from a re-analysis of the deposited data

Results flagged for a closer look

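In 28 groups of 4 mouse values, 2 held a mouse that stood apart by Dixon's criterion, and chance alone flags about 1 in 20 such groups. Both concerned the share of distinct TRBV20 clones joined to the TRBJ1 cluster, and both were mouse 7. In CD8+ dLNs mouse 7 stood at 41.4%, where the others lay at 38.1% to 38.2%. In CD4+ tumors it stood at 36.2%, where the others lay at 33.3% to 33.7%. In mouse 7, the left CD8+ dLN held 43.3% and the right 39.5%, so the high mean came mainly from the left.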

How the results depend on the processing

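Limits of these values are 4 mice, 1 draw per library and no molecular identifiers. Of 245 values under other settings, leaving out a mouse aside, 218 kept their direction and their side of the threshold, or moved by less than 1 SD. The overlap within against between mice stayed past the threshold in all 4 groups under each such setting, and no CDR3 feature reached an adjusted p under 0.171. The cause of the shifts below was not tested.

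The share of distinct clones moved beyond 1 SD with each library drawn to the reads of the smallest, 131070, to 1.66% in CD8+ tumors, which sum 2 such libraries, and 1.90% in CD8+ dLNs, which have 1, and with a minimum of 6 reads, to 1.61%, 1.72% and, in CD4+ dLNs, 4.18%. In CD8+ dLNs it was 1.93% with a minimum of 2 reads and 2.02% with amino acid clones, and in CD4+ tumors 4.34% as the mean of fragments. The share of reads in CD8+ dLNs was 1.4997% with a minimum of 6 reads. Leaving out large clones was chosen after the data were seen. Without clones of at least 1%, the CD8+ tumor share of reads was 2.52%, and without those of at least 0.1% it was 1.89%, with 3.70% in CD4+ dLNs. At a limit of 2%, 2 large clones remained in place of 5.

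Small differences that were not past the threshold changed sign. CDR3 length in CD8+ tumors minus dLNs was -0.00457 residues with reads as deposited, -0.0126 with each library drawn to the smallest, -0.00942 as the mean of fragments and -0.227 weighted by reads. In CD4+ tumors minus dLNs it was 0.000309 with another seed, 0.00301 and 0.01002 with minimums of 2 and 6 reads, and 0.00267 with sides summed. For the TRBJ1 cluster, a minimum of 6 reads gave 0.697 points in CD4+ tumors minus dLNs and -0.102 in CD8+ minus CD4+ tumors, and read weights gave 27.7 points in CD8+ tumors minus dLNs. Read weights also turned the nucleotides not assigned to a segment, to 0.333 in CD4+ tumors minus dLNs, -1.32 in CD8+ minus CD4+ tumors and -0.175 in CD8+ minus CD4+ dLNs.

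With the mouse as a replicate block, whose smallest exact p is 0.125, the differences were the same, such as -3.86 points for the TRBJ1 cluster in CD8+ tumors minus dLNs, and no call changed. Leaving out 1 mouse leaves too few splits for a p of 0.05, so these are values only. Within minus between overlap in CD8+ tumors ranged from 82.9 to 91.5 percentage points, and the number of large clones from 3, without mouse 8, to 4. The CD8+ tumor share of reads ranged from 5.06% to 6.96%.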
